A study of Mus musculus with 12 samples.

Results

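The 10 genes examined here encode enzymes that make serine, move its carbon units on folate and make asparagine. Phgdh, Psat1 and Psph form the serine synthesis pathway, Shmt1 and Mthfd1 act on folate in the cytosol, Shmt2, Mthfd2, Mthfd1l and Aldh1l2 act on folate in mitochondria, and Asns makes asparagine in the cytosol. They were taken by name, as the rows whose Ensembl identifier maps to these 10 symbols, from 48709 genes in the deposited count tables. All 10 passed the filter on low counts, which left 14408 genes, and a member had between 1161 and 26881 counts in a library. The genes were chosen by their function and on measured values: the log2 differences between the genotypes in normoxia were known when the list was drawn up. Those differences are therefore given as a description, with no p-value.

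The libraries were made from cultured mouse embryonic fibroblasts (MEFs, connective tissue cells grown out of embryos) of the C57BL/6 strain, kept in DMEM with fetal bovine serum. Each genotype, WT and TAZKo, was grown in normoxia or kept for 24 hours in a hypoxia workstation, which gives 4 groups of 3 libraries. TAZKo stands for cells that lack tafazzin, which remodels the mitochondrial lipid cardiolipin, and the series describes the WT cells as isogenic to them. How the gene was disrupted, the oxygen level, whether each genotype is 1 clone and whether the libraries of a group came from separate cultures are not given in the sources used here, so the p-values measure only the spread between these samples, which may be technical. The study asks how cells lacking tafazzin differ from WT cells in low and in normal oxygen.

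Serine synthesis branches from glycolysis: Phgdh oxidises a glycolytic intermediate, Psat1 adds an amino group taken from glutamate, and Psph removes the phosphate. Serine hydroxymethyltransferase then passes a carbon unit from serine to tetrahydrofolate and leaves glycine, with Shmt1 in the cytosol and Shmt2 in mitochondria. In proliferating cells the carbon units are usually oxidised in mitochondria by Mthfd2, released as formate by Mthfd1l, and taken up again in the cytosol by Mthfd1 for the synthesis of purines and thymidylate. Many of these genes are known targets of ATF4, the transcription factor of the integrated stress response, which is switched on by amino acid shortage, stress of the endoplasmic reticulum and mitochondrial dysfunction.

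Library totals ran from 21039451 to 31204510 counts. The Taz transcript, which the labels make the targeted gene, was not lower in the TAZKo libraries: it was at 38, 33.2 and 32.6 CPM (counts scaled to library size, with TMM factors) in WT normoxia and at 45.8, 39.8 and 40.9 CPM in TAZKo normoxia. In hypoxia it was at 25.5, 26.4 and 23.5 CPM in WT and at 33.6, 32.8 and 35 CPM in TAZKo (log2 difference 0.43, SE 0.0805, edgeR adjusted p = 0.00112). The level of a transcript cannot show whether it still encodes a working enzyme, so "TAZKo" and "WT" below mean the libraries labelled so. WT normoxia sample 1 stood apart from the other 2 WT normoxia libraries: the chi-square per gene was 36.89 and 43.87 for its pairs, against 2.92 to 14.13 for the other pairs of libraries of 1 group, and mitochondrial genes took 0.921% of its counts against 1.23% to 1.93% elsewhere. Calls of the 10 genes that changed without it are given with and without it. Other named genes are given with it only, and for some of them it stood apart too. In WT normoxia Hif1a was at 178 CPM in sample 1 against 273 and 284 CPM in the others. Cebpg was at 57.9 CPM there against 89.2 and 86.1 CPM. Fibroblast markers Vim, Fn1, Col1a1, Col3a1, Pdgfra, Pdgfrb and Dcn were among the 8 of 10 markers that passed the filter, and the 10 together summed to 10369 to 13249 CPM. Single markers differed between the genotypes under that sum. In normoxia mean Col1a1 was 2833 CPM in WT and 1152 CPM in TAZKo, and mean Pdgfrb was 49.6 and 104 CPM. In hypoxia 3 of the 8 were called higher and 2 lower in TAZKo, against 15.8% and 16.9% of all genes. Thy1 was at 0.0866 to 0.291 CPM, Lum was at or near 0, and Col1a2 was at 1.51 to 5.92 CPM. Among markers of other cells, Ptprc, Adgre1, Hbb-bs, Cdh5, Myod1 and Pou5f1 were at or near 0, but some members of each list were not. Endothelial Kdr was at 2.45 to 3.55 CPM in WT and at 0.883 to 1.24 CPM in TAZKo, and macrophage Cd68 rose in hypoxia in both genotypes (1.27 and 0.77 on the log2 scale) from 2.89 to 4.33 CPM to between 5.95 and 7.93 CPM. Pluripotency gene Nanog was at 0.874 to 2.43 CPM, and the muscle list, nearly all Des, summed to 9.01 to 10.1 CPM in TAZKo normoxia and to 3.73 to 4.95 CPM in WT normoxia. The epithelial list, mostly Krt18, summed to 97.9 to 105 CPM in TAZKo normoxia and to 117 to 152 CPM elsewhere. The part of these markers in the differences below was not tested.

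The promoter windows of 9 of the 10 genes could be read from RefSeq (build GRCm38.p6, 250 bases before to 50 bases after the annotated start); Aldh1l2 was not among them. Each window was searched on both strands for TGATGNAA, the core of the composite element bound by C/EBP and ATF4, and for ACGTG or GCGTG, the core of the hypoxia response element. TGATGNAA was found in 1 of the 9 genes, Asns, and in 3.97% of all 32851 promoter windows of that length. ACGTG or GCGTG was found in 8 of the 9 genes, all but Mthfd2, and in 43.8% of all windows. The following 3 windows are shown because they belong to the gene with the TGATGNAA match, to the gene with the largest rise in hypoxia, and to the gene with no match to either motif. Capitals mark TGATGNAA in Asns and the hypoxia core (or its complement) in Mthfd1l.
Asns (chr6:7693160-7693459, minus strand): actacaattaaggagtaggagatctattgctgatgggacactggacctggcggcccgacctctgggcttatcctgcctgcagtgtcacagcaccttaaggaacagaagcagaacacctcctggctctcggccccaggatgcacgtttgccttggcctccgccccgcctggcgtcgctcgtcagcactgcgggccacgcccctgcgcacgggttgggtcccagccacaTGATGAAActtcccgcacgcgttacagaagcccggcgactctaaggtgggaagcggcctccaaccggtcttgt
Mthfd1l (chr10:3972825-3973124, plus strand): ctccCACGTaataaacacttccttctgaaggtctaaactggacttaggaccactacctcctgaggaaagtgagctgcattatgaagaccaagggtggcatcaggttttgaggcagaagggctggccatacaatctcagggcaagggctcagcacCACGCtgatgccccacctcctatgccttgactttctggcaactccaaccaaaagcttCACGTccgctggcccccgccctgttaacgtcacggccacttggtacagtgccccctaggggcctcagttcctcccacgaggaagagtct
Mthfd2 (chr6:83317555-83317854, minus strand): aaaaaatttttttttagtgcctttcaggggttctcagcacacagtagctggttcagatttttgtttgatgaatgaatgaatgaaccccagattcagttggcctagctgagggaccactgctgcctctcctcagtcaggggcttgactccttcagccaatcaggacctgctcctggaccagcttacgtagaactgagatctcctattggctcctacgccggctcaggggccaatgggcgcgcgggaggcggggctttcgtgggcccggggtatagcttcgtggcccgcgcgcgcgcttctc
The Asns match reads TGATGAAA on the strand of the gene and begins 23 bases before the start. The 3 matches of Mthfd1l begin 246, 96 and 39 bases before the start, all on the opposite strand. A match is a run of letters and not a measured binding site, and a window with no match says only that these letters are not in it. Match positions depend on the start used: in 9 of the 10 windows the RefSeq start differs from the outer end of the GENCODE gene model. It lies 45 bases inside the model for Asns and 43 bases before it for Mthfd1l, and 8304 bases inside it for Mthfd2.

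The 3 genes of serine synthesis were higher in the TAZKo libraries than in WT in both oxygen conditions, and Psat1, the aminotransferase, rose in hypoxia in both genotypes. Phgdh (ENSMUSG00000053398, chr3:98313170-98339990 in mm10, the build named in the submitters' processing notes), the entry enzyme, was at 105, 90 and 84.3 CPM in WT normoxia and at 136, 132 and 124 CPM in TAZKo normoxia. In hypoxia it was at 101, 105 and 107 CPM in WT and at 149, 157 and 149 CPM in TAZKo. The genotypes did not overlap in either condition, while the WT normoxia and WT hypoxia libraries did. The log2 difference between TAZKo and WT was 0.49 (SE 0.0751) in normoxia and 0.53 (SE 0.0749, edgeR adjusted p = 0.000112) in hypoxia. The change in hypoxia was small in both genotypes: 0.17 on the log2 scale in WT (edgeR adjusted p = 0.083), and 0.21 for the TAZKo libraries (edgeR adjusted p = 0.0339). Without WT normoxia sample 1 the WT change was 0.26 and passed the threshold (edgeR adjusted p = 0.00142, against 0.00142 to 0.68 over its 22 alternatives). Phgdh shares 63.1% of the 50-base words of its longest transcript with 23 other annotated genes, so its counts are uncertain. The 18 of them that are in the tables held 17% to 21.8% as many counts as Phgdh itself. The call of Phgdh in TAZKo hypoxia was lost in 14 of its 22 alternatives (edgeR or DESeq2 adjusted p 0.00196 to 0.246), among them 10 of the 12 fits with 1 library left out. It was also lost with the counts of the sharing genes added (0.19, edgeR adjusted p = 0.0669).

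Psat1 (ENSMUSG00000024640, chr19:15904678-15947337) was at 303, 335 and 302 CPM in WT normoxia and at 616, 639 and 536 CPM in TAZKo normoxia. After hypoxia it stood at 563, 570 and 603 CPM in WT and at 918, 929 and 860 CPM in TAZKo. WT cells in hypoxia thus overlapped with TAZKo cells in normoxia, and the TAZKo hypoxia libraries lay above all others. Psat1 was 0.93 higher on the log2 scale in TAZKo in normoxia (SE 0.0718) and 0.64 higher in hypoxia (SE 0.0713, edgeR adjusted p = 1.56e-05). Hypoxia raised it in WT by 0.89 (SE 0.0717, edgeR adjusted p = 3.03e-07). In the TAZKo libraries the rise was 0.60 (SE 0.0712, edgeR adjusted p = 1.77e-05). Psph (ENSMUSG00000029446, chr5:129765558-129787449), the phosphatase that completes serine, was at 118, 107 and 99 CPM in WT normoxia and at 250, 232 and 208 CPM in TAZKo normoxia. In hypoxia it was at 154, 163 and 167 CPM in WT and at 262, 254 and 225 CPM in TAZKo. The WT libraries moved up in hypoxia without overlap, while the TAZKo libraries of the 2 conditions overlapped. Psph was 1.09 higher in TAZKo in normoxia (SE 0.0855) and 0.61 higher in hypoxia (SE 0.0846, edgeR adjusted p = 9.94e-05). Its rise in hypoxia was 0.58 in WT (edgeR adjusted p = 7.3e-05), against a change of 0.10 in TAZKo (95% interval -0.08 to 0.28, edgeR adjusted p = 0.358). Psph shares 7.28% of its words with Cct6a, which overlaps it on the opposite strand, and the library kit does not mark strand. Cct6a itself changed by -0.12 and -0.10 between the genotypes, and fell by 0.23 and 0.22 in hypoxia in WT and TAZKo.

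**Figure D1:**
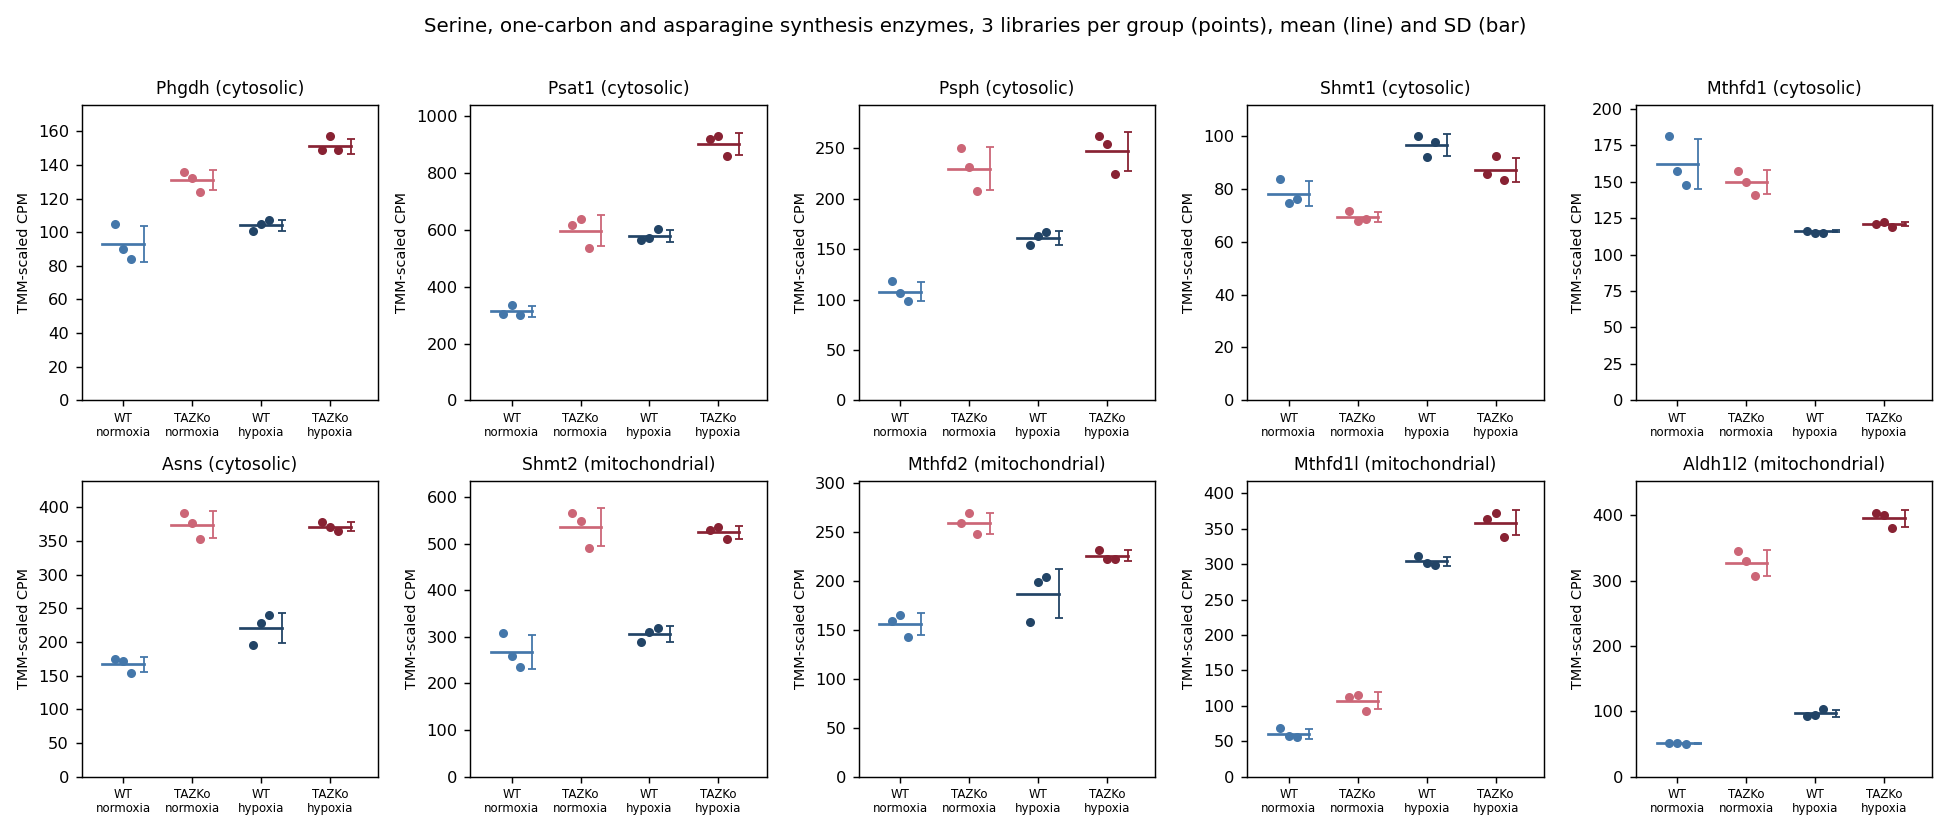
CPM of the 10 genes, scaled by TMM (vertical axes, from 0) in the 4 groups (horizontal axes), with 1 point per library, a line for the mean and a bar for the SD of 3 libraries. Shmt1 and Mthfd1 lie at like levels in both genotypes, whereas Aldh1l2 is at 50.5 to 51.6 CPM in WT normoxia and at 307 to 345 CPM in TAZKo normoxia.

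The 2 cytosolic folate genes did not follow this pattern. Shmt1 (ENSMUSG00000020534, chr11:60788104-60811718), the cytosolic serine hydroxymethyltransferase, was at 83.5, 74.6 and 76.1 CPM in WT normoxia and at 71.4, 67.7 and 68.6 CPM in TAZKo normoxia. In hypoxia it was at 99.8, 92 and 97.8 CPM in WT and at 85.5, 92.3 and 83.4 CPM in TAZKo. It was slightly lower in TAZKo, by 0.17 on the log2 scale in normoxia and with a difference of -0.15 in hypoxia (95% interval -0.29 to -0.01, edgeR adjusted p = 0.0907), where the genotypes overlapped. The hypoxia difference passed the threshold in 2 of the 12 fits with 1 library left out, among them the fit without WT normoxia sample 1 (edgeR adjusted p = 0.0317, against 0.0317 to 0.388 over its 21 alternatives). Shmt1 rose in hypoxia to a like extent in WT (0.31, SE 0.0639, edgeR adjusted p = 0.00121) and TAZKo (0.33, SE 0.0639, edgeR adjusted p = 0.000915). Shmt1 has 4.81% of its words in common with the overlapping gene Smcr8, which itself rose by 0.71 and 0.58 in hypoxia in WT and TAZKo, and the part of those reads in the rise of Shmt1 was not tested.

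Mthfd1 (ENSMUSG00000021048, chr12:76255298-76319803), the cytosolic enzyme that takes up formate and interconverts the folate carbon units, was at 181, 157 and 148 CPM in WT normoxia and at 157, 150 and 141 CPM in TAZKo normoxia. In hypoxia it was at 116, 115 and 115 CPM in WT and at 121, 122 and 119 CPM in TAZKo. It was the only one of the 10 genes called lower in hypoxia, in both genotypes and with no overlap: in WT the log2 change was -0.49 (SE 0.0714, edgeR adjusted p = 7.32e-05), and in TAZKo it was -0.31 (SE 0.0712, edgeR adjusted p = 0.0032). Between the genotypes its log2 difference was -0.12 in normoxia and 0.06 in hypoxia (95% interval -0.09 to 0.22, edgeR adjusted p = 0.539).

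In mitochondria, the 4 folate genes were all higher in TAZKo normoxia than in WT normoxia with no overlap between libraries, but their responses to hypoxia differed widely. Shmt2 (ENSMUSG00000025403, chr10:127517123-127522444), which splits serine in mitochondria, was at 308, 260 and 236 CPM in WT normoxia and at 567, 550 and 491 CPM in TAZKo normoxia. After hypoxia it was at 288, 310 and 320 CPM in WT and at 529, 537 and 510 CPM in TAZKo. The genotypes were far apart in both conditions and the conditions overlapped in both genotypes. The difference between TAZKo and WT was 1.0 in normoxia (SE 0.0883) and 0.78 in hypoxia (SE 0.088, edgeR adjusted p = 1.81e-05). Hypoxia moved it by 0.19 in WT (edgeR adjusted p = 0.0845) and by -0.03 in TAZKo (95% interval -0.22 to 0.16, edgeR adjusted p = 0.811). Without WT normoxia sample 1, which had the highest WT value, the WT change was 0.30 and passed the threshold (edgeR adjusted p = 0.00181, against 0.00181 to 0.645 over its 21 alternatives). In the WT libraries of lane 4, the change was 0.02, and in those of lane 5 it was 0.42.

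Mthfd2 (ENSMUSG00000005667, chr6:83305691-83325908), the mitochondrial dehydrogenase and cyclohydrolase, was at 159, 165 and 143 CPM in WT normoxia and at 259, 270 and 248 CPM in TAZKo normoxia. With hypoxia it stood at 158, 199 and 204 CPM in WT and at 232, 223 and 223 CPM in TAZKo. WT hypoxia sample 1 lay within the WT normoxia range while the other 2 lay above it. The log2 difference between the genotypes was 0.73 in normoxia (SE 0.0876) and 0.28 in hypoxia (SE 0.0872, edgeR adjusted p = 0.0268, against 0.0017 to 0.112 over its 21 alternatives). The hypoxia difference was 0.16 without WT hypoxia sample 1 and lost its call there and when any of the 3 TAZKo hypoxia libraries was left out. It was 0.56 between the libraries of lane 4 and 0.15 between those of lane 5. In WT cells Mthfd2 changed by 0.26 in hypoxia (edgeR adjusted p = 0.022). That call held in 2 of the 12 fits with 1 library left out (edgeR or DESeq2 adjusted p 0.00193 to 0.259 over its 21 alternatives). The WT change was -0.04 between the libraries of lane 4 and 0.49 between those of lane 5. In TAZKo cells the change was -0.20 (95% interval -0.38 to -0.01, edgeR adjusted p = 0.085), although the 3 hypoxia libraries lay below the 3 normoxia libraries.

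Mthfd1l (ENSMUSG00000040675, chr10:3973118-4167081), which releases formate from mitochondria, had the largest hypoxia response of the 10 genes in both genotypes. It was at 69, 57.3 and 55.6 CPM in WT normoxia and at 113, 115 and 93.3 CPM in TAZKo normoxia. Under hypoxia it stood at 311, 302 and 299 CPM in WT and at 364, 373 and 339 CPM in TAZKo. No groups overlapped. The rise was 2.33 on the log2 scale in WT (5.02-fold, SE 0.0947, edgeR adjusted p = 3.64e-10), against 1.74 in TAZKo (3.35-fold, SE 0.0921, edgeR adjusted p = 6.95e-09). The difference between TAZKo and WT was 0.82 in normoxia (SE 0.092) and 0.24 in hypoxia (SE 0.0891, edgeR adjusted p = 0.0554). The hypoxia difference passed the threshold with the replicate number as a block (0.24, edgeR adjusted p = 0.0134) and in 8 other of its 21 alternatives, whose adjusted p ran from 0.00221 to 0.177. The fit without WT normoxia sample 1 was among those that passed (0.24, edgeR adjusted p = 0.0097).

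Aldh1l2 (ENSMUSG00000020256, chr10:83487450-83534140), the mitochondrial enzyme that oxidises formyl-tetrahydrofolate and yields NADPH, had the largest difference between the genotypes. It was at 51.6, 50.9 and 50.5 CPM in WT normoxia and at 345, 330 and 307 CPM in TAZKo normoxia. The hypoxia libraries were at 92, 94.4 and 103 CPM in WT and at 404, 400 and 380 CPM in TAZKo. No groups overlapped, and every WT library in hypoxia remained below every TAZKo library in normoxia. TAZKo exceeded WT by 2.68 on the log2 scale in normoxia (6.41-fold, SE 0.0657) and by 2.03 in hypoxia (4.08-fold, SE 0.0637, edgeR adjusted p = 1.68e-10). Its rise in hypoxia was 0.92 in WT (SE 0.0634, edgeR adjusted p = 6.37e-08), against 0.27 in TAZKo (SE 0.0609, edgeR adjusted p = 0.00264). Aldh1l2 shares 16.8% of its words with the overlapping antisense gene D10Wsu102e, whose own log2 difference between the genotypes was 0.49 in both conditions. Its cytosolic relative Aldh1l1 did not pass the filter and was at 0 to 0.777 CPM.

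Asns (ENSMUSG00000029752, chr6:7675169-7693254), which makes asparagine from aspartate and glutamine, was at 174, 172 and 154 CPM in WT normoxia and at 392, 377 and 353 CPM in TAZKo normoxia. Its hypoxia values were 196, 228 and 240 CPM in WT and 378, 371 and 364 CPM in TAZKo. WT cells moved up in hypoxia with no overlap, and the TAZKo libraries of both conditions shared the same range. Asns was 1.17 higher in TAZKo in normoxia (SE 0.077) and 0.74 higher in hypoxia (SE 0.0763, edgeR adjusted p = 7.79e-06). Its WT rise was 0.41 (SE 0.0765, edgeR adjusted p = 0.000519), at 0.18 between the libraries of lane 4 and 0.60 between those of lane 5. In TAZKo it changed by -0.01 (95% interval -0.18 to 0.15, edgeR adjusted p = 0.915). In bulk libraries such as these, fewer cells of a kind and less RNA per cell cannot be told apart.

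Across the 10 genes, 8 were called higher in TAZKo than in WT in normoxia and 0 lower, with a median log2 difference of 0.88, where 15.6% of all genes tested were called higher, 14.9% lower, and their median was 0.01. No library overlap was seen for 8 genes higher and 1 lower, against 22% and 20.9% of all genes, and 3 members were called with at least a 2-fold difference, against 5.96%. These normoxia counts describe how the list was chosen, and nothing is read from them. In hypoxia 7 were called higher and 0 lower (median 0.57), against 15.8% and 16.9% of all genes and a median of -0.01. The 3 without a call in hypoxia were Shmt1, Mthfd1 and Mthfd1l, and 9 of the 10 had TAZKo libraries wholly above WT there, against 24.3% of all genes (0 wholly below, against 25.8%). Aldh1l2 was the 1 member with at least a 2-fold call in hypoxia, against 5.82% of all genes. The same genotypes are compared here, so genes listed with high normoxia differences may be high in hypoxia for that reason alone. The counts, calls and p-values of the genotypes in hypoxia are therefore a description of the 10 genes too, and no independent support. Both hypoxia responses use the normoxia libraries whose genotype difference was known when the genes were listed. Choosing genes with high normoxia differences favours a higher WT response and a lower TAZKo response. The counts, calls and p-values of these responses are therefore a description of the 10 genes. In WT cells 7 of the 10 rose in hypoxia and 1 fell (median 0.36), against 26% and 25% of all genes. The WT libraries did not overlap for 6 higher and 1 lower, against 28.1% and 26.5% of all genes, and 1 member, Mthfd1l, was called with at least a 2-fold rise, against 11.2% past that size in either direction. In TAZKo cells 5 rose and 1 fell (median 0.16), against 22.2% and 21.6%. There 5 did not overlap on the higher side and 2 on the lower, against 30.3% and 30.9%, and Mthfd1l was again the 1 past 2-fold, against 8.44%. Without WT normoxia sample 1, the members called higher and lower were 8 and 1 for the genotypes in hypoxia (all genes 19.9% and 22%), 9 and 1 for hypoxia in WT (all genes 26.6% and 25.7%), and 5 and 1 for hypoxia in TAZKo (all genes 25.9% and 26.4%).

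**Figure D2:**
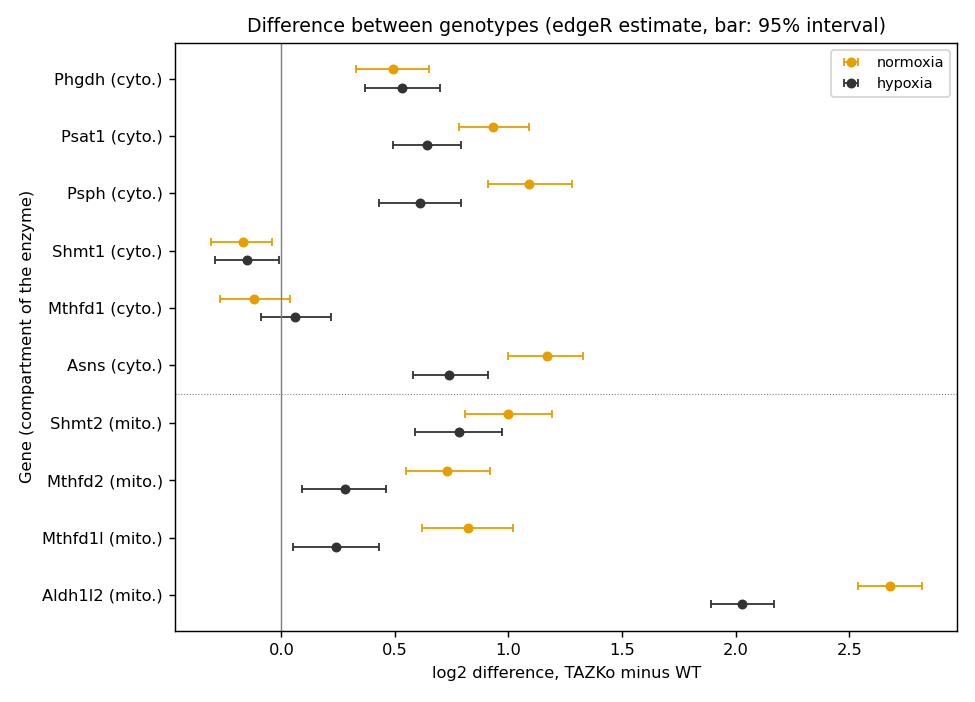
Log2 difference between TAZKo and WT (horizontal axis) for each of the 10 genes (vertical axis) in normoxia and in hypoxia, as the edgeR estimate with its 95% interval over 3 libraries per group. Aldh1l2 lies farthest to the right at 2.68 and 2.03, and Shmt1 and Mthfd1 lie between -0.17 and 0.06.

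The responses to hypoxia were compared between the genotypes directly, as the TAZKo response minus the WT response. This term and both responses share normoxia libraries with the difference that was known when the genes were listed. Since it equals the genotype difference in hypoxia minus that in normoxia, choosing genes with high normoxia differences favours negative values. Its signs, calls and p-values are therefore given as a description of these genes and support nothing beyond it. The term was negative for 7 of the 10 genes, with a median of -0.36 (all genes -0.02). It passed the threshold for 2, both mitochondrial, against 1.71% of all genes called in that direction; 0 passed in the other, against 0.722%, and 0 were past 2-fold, against 0.569%. Aldh1l2 rose by 0.65 less in TAZKo (log2 difference of responses -0.65, SE 0.0877, edgeR adjusted p = 0.0019, with adjusted p 8.73e-08 to 0.0139 over its 20 alternatives). Mthfd1l had a difference of -0.58 (SE 0.128, edgeR adjusted p = 0.0297), which lost its call in 9 of the 12 fits with 1 library left out (adjusted p 0.000298 to 0.111 over its 20 alternatives). Psph (-0.48, SE 0.12, edgeR adjusted p = 0.0546), Asns (-0.42, SE 0.108, edgeR adjusted p = 0.0597) and Mthfd2 (-0.46, SE 0.123, edgeR adjusted p = 0.0754) missed the threshold. Without WT normoxia sample 1 all 3 passed it, at edgeR adjusted p = 0.0112, 0.0244 and 0.0424, and the number of members called lower was 5, while the share of all genes called lower in that fit was 2.51%. With the replicate number as a block these 3 also passed (edgeR adjusted p = 0.0142, 0.0401 and 0.0439). The adjusted p over the 20 alternatives ran from 0.0088 to 0.167 for Psph, from 0.012 to 0.207 for Asns and from 0.00648 to 0.246 for Mthfd2. For Psat1 (-0.29, 95% interval -0.51 to -0.07, edgeR adjusted p = 0.17), Shmt2 (-0.22, -0.49 to 0.05, edgeR adjusted p = 0.426), Mthfd1 (0.18, -0.04 to 0.40, edgeR adjusted p = 0.427), Phgdh (0.05, -0.18 to 0.27, edgeR adjusted p = 0.878) and Shmt1 (0.02, -0.17 to 0.22, edgeR adjusted p = 0.929) no difference of responses was called.

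**Figure D3:**
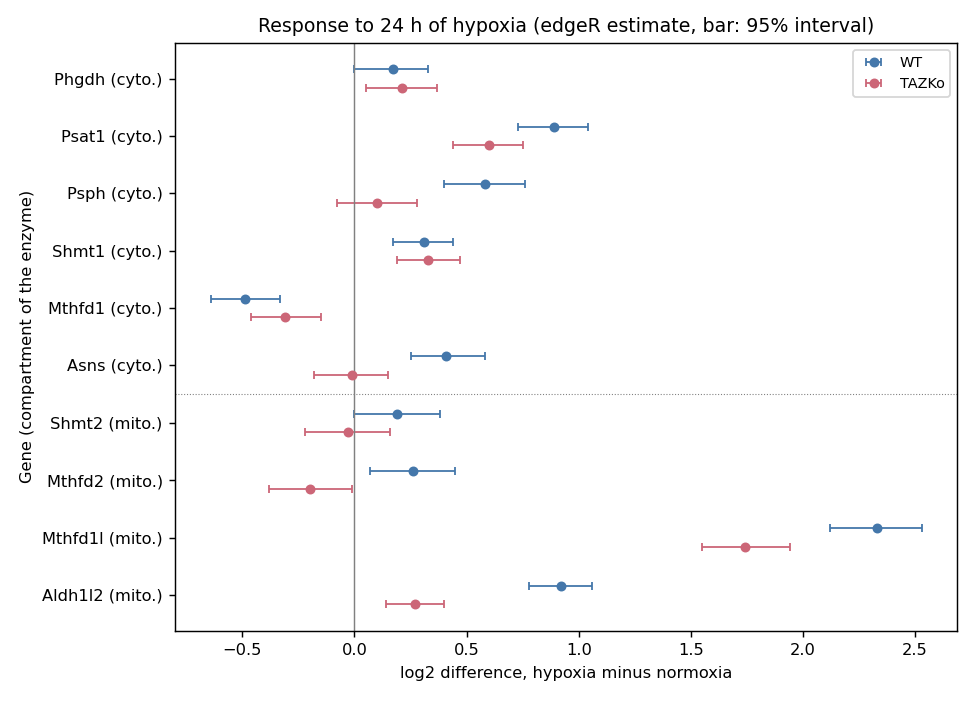
Log2 difference between hypoxia and normoxia (horizontal axis) for each of the 10 genes (vertical axis) in WT and TAZKo cells, as the edgeR estimate with its 95% interval over 3 libraries per group. Mthfd1l stands far to the right at 2.33 and 1.74, Mthfd1 is the gene to the left of 0 in both genotypes, and the intervals of Aldh1l2 in WT (0.92) and TAZKo (0.27) are apart.

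Set against each other by compartment, the 4 mitochondrial genes had a median log2 difference between the genotypes of 0.91 in normoxia and 0.53 in hypoxia, and the 6 cytosolic genes 0.71 and 0.57. The gap of 0.20 in normoxia and -0.05 in hypoxia was given by medians over few genes with wide ranges, from 0.73 to 2.68 and from -0.17 to 1.17 in normoxia. Within the cytosolic genes, the serine synthesis genes and Asns lay between 0.49 and 1.17 in normoxia, and Shmt1 and Mthfd1 lay at -0.17 and -0.12. In hypoxia the serine synthesis genes and Asns lay between 0.53 and 0.74, and Shmt1 and Mthfd1 at -0.15 and 0.06. In the response to hypoxia the mitochondrial median was 0.59 in WT and 0.12 in TAZKo, and the cytosolic median 0.36 and 0.16. For the difference of responses the medians were -0.52 and -0.13.

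The paralogues restate this contrast within each library, as the ratio of CPM per kb of the longest transcript. The ratios are formed from the members' own values, whose normoxia genotype differences were known when the genes were listed. That choice can favour a gap between the genotypes in normoxia and a smaller one in hypoxia, so the ratios are a description. Shmt2 exceeded Shmt1 by 2.20, 2.12 and 1.95 on the log2 scale in WT normoxia and by 3.31, 3.34 and 3.16 in TAZKo normoxia, which corresponds to mean ratios of 4.27 and 9.65. By the mean transcript length these mean ratios were 3.22 and 7.29. In hypoxia the log2 ratio was 1.85, 2.07 and 2.03 in WT and 2.95, 2.86 and 2.93 in TAZKo. The genotypes did not overlap in this ratio in either condition, and the TAZKo libraries in hypoxia lay below those in normoxia. The log2 ratio of Mthfd1l to Mthfd1 was -1.58, -1.64 and -1.60 in WT normoxia and -0.66, -0.58 and -0.78 in TAZKo normoxia. In hypoxia it was 1.23, 1.20 and 1.19 in WT and 1.40, 1.43 and 1.32 in TAZKo. Mthfd1l was therefore below Mthfd1 in every normoxia library and above it in every hypoxia library, at mean ratios of 0.328 and 0.628 against 2.31 and 2.61. With the mean transcript length in place of the longest, these ratios were 0.168, 0.321, 1.18 and 1.33. The log2 ratio of Mthfd2 to Mthfd1 was 0.45, 0.70 and 0.59 in WT normoxia, and its means in TAZKo normoxia, WT hypoxia and TAZKo hypoxia were 1.43, 1.32 and 1.54. WT normoxia libraries were lowest for that pair and TAZKo hypoxia libraries highest, and the other 2 groups overlapped.

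**Figure D4:**
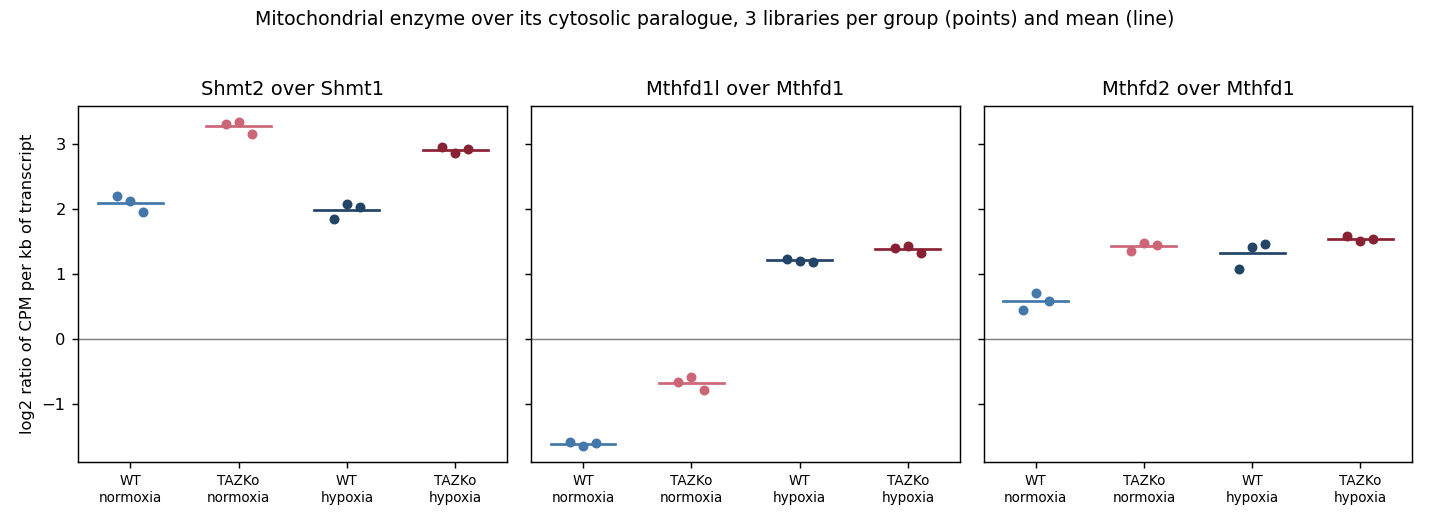
Log2 ratio of CPM per kb of transcript of a mitochondrial enzyme to its cytosolic paralogue (vertical axis) in the 4 groups (horizontal axis), with 1 point per library and a line for the mean of 3. Shmt2 over Shmt1 separates the genotypes (2.09 and 3.27 in normoxia), and Mthfd1l over Mthfd1 crosses 0 between normoxia (-1.61 and -0.67) and hypoxia (1.21 and 1.38). The normoxia genotype differences were known when the genes were listed.

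The order of levels per kb of transcript changed with genotype and oxygen. In WT normoxia Psat1 (120 ± 7.16 CPM per kb, SD, n = 3) and Shmt2 (117 ± 16) were highest and overlapped. Asns (82.7 ± 5.44) and Mthfd2 (74.7 ± 5.39) followed and overlapped, as did Mthfd1 (50 ± 5.31) and Phgdh (49.2 ± 5.68) after them. Below them stood, without overlap between neighbours, Psph (37.5 ± 3.23), Shmt1 (27.3 ± 1.66), Mthfd1l (16.4 ± 1.98) and Aldh1l2 (8.46 ± 0.0932). In TAZKo normoxia Shmt2 (234 ± 17.4) and Psat1 (228 ± 20.8) overlapped at the top, Aldh1l2 stood at rank 7 (54.3 ± 3.2), and Shmt1 was lowest (24.2 ± 0.67). In WT hypoxia Psat1 (221 ± 8.25) stood alone above Shmt2 (134 ± 7.26), Mthfd1l (82.4 ± 1.59) was at rank 5 and overlapped with Mthfd2 (89.6 ± 12.1), and Aldh1l2 was again lowest (16 ± 0.994). In TAZKo hypoxia Psat1 (345 ± 14.3), Shmt2 (229 ± 6.11) and Asns (184 ± 3.5) led without overlap, and Mthfd1 (37.3 ± 0.391) and Shmt1 (30.5 ± 1.62) were lowest.

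Shmt2, Mthfd1l and Aldh1l2 all lie on chromosome 10, where the whole set of 676 tested genes was shifted. Its median log2 difference between TAZKo and WT was 0.31 in normoxia and 0.29 in hypoxia. Less that median, Shmt2 was at 0.69 and 0.49, Mthfd1l at 0.51 and -0.05, and Aldh1l2 at 2.37 and 1.74. The difference of Mthfd1l in hypoxia was thus no larger than that of its chromosome. Psat1 lies on chromosome 19, where the median was -0.27 and -0.28, and less that median it was at 1.20 and 0.92. For the other 6 genes the chromosome medians were between -0.07 and 0.13. The part of these chromosome-wide shifts in the members' differences was not tested. The hypoxia responses had medians near 0 on both chromosomes (-0.02 to 0.03).

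The genes whose profile over the 12 libraries was nearest were found by the root mean square distance between centred log2 CPM values. For Asns the nearest of all tested genes was Shmt2 (distance 0.102), followed by Psph (0.11) and Tlr2 (0.113). The profiles include the normoxia differences that were known when the list was drawn up, so members near each other restate that choice. For Aldh1l2 they were Dysf (0.193), Cacna1c (0.201) and P2rx3 (0.246), for Mthfd2 Jdp2 (0.0929), Nfe2l1 (0.119) and Ank2 (0.121), for Phgdh Rps26 (0.0546), Yars (0.061) and Sorbs3 (0.0634), and for Shmt1 Ube2o (0.0426), Fmnl3 (0.0468) and 6430548M08Rik (0.0488). The distance is smaller for genes that vary little, and the centred values of Shmt1 and Aldh1l2 had a root mean square of 0.187 and 1.23.

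Of 10 known transcription regulators of these enzymes, 9 rose in hypoxia in WT, against 26% of all genes. In TAZKo 6 rose and 1 fell, against 22.2% and 21.6%. In hypoxia 3 were higher and 3 lower in TAZKo than in WT, against 15.8% and 16.9%. This list, like those of the neighbouring pathways below, was chosen with earlier results of these data known, so its counts are a description. Atf4, the regulator named above, was at 426, 367 and 336 CPM in WT normoxia and at 631, 611 and 558 CPM in TAZKo normoxia. After 24 hours of hypoxia it was at 744, 813 and 858 CPM in WT and at 789, 777 and 781 CPM in TAZKo. The genotypes did not overlap in normoxia (log2 difference 0.67) and overlapped in hypoxia (-0.04, 95% interval -0.22 to 0.14, edgeR adjusted p = 0.744). The WT rise of Atf4 was 1.10 (SE 0.0834, edgeR adjusted p = 1.65e-07), against 0.38 in TAZKo (SE 0.0825, edgeR adjusted p = 0.00198). ATF4 is regulated mainly at translation, which these libraries do not measure. Ddit3, a transcription factor of the same stress response that lies on chromosome 10, was at 21.2, 18 and 16 CPM in WT normoxia and at 45.7, 45.6 and 42.5 CPM in TAZKo normoxia. Hypoxia libraries stood at 85.1, 86.6 and 92.5 CPM in WT and at 131, 113 and 113 CPM in TAZKo. Its rise was 2.26 in WT (edgeR adjusted p = 5.84e-10), against 1.41 in TAZKo (edgeR adjusted p = 5.33e-08).

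Atf5, a close relative of Atf4, was higher in TAZKo by 1.09 in normoxia and by 0.81 in hypoxia (edgeR adjusted p = 2.41e-05), changed by -0.13 in hypoxia in WT (edgeR adjusted p = 0.263) and fell by 0.41 in TAZKo (edgeR adjusted p = 0.00293). Cebpg, a partner of ATF4, differed between the genotypes by 0.60 in normoxia and 0.37 in hypoxia (edgeR adjusted p = 0.0316) and rose by 0.67 and 0.44 in hypoxia. Myc, which drives growth genes, rose by 1.63 in WT (edgeR adjusted p = 7.61e-08), against 1.0 in TAZKo (edgeR adjusted p = 9.95e-06), and was lower in TAZKo in hypoxia (-0.34, edgeR adjusted p = 0.0303). Hif1a, the oxygen-regulated HIF subunit, rose by 0.63 and 0.51 and was lower in TAZKo in hypoxia (-0.48, edgeR adjusted p = 0.0183). Cebpb was lower in TAZKo in hypoxia as well (-0.44, edgeR adjusted p = 0.00323) and rose by 0.41 in WT (edgeR adjusted p = 0.00288). Nfe2l2, Epas1 and Trp53 rose by 0.24, 0.30 and 0.23 in WT (edgeR adjusted p = 0.00829, 0.01 and 0.00624) and differed between the genotypes in hypoxia by 0.16, 0.06 and 0.09 (edgeR adjusted p = 0.0892, 0.656 and 0.323).

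**Figure D5:**
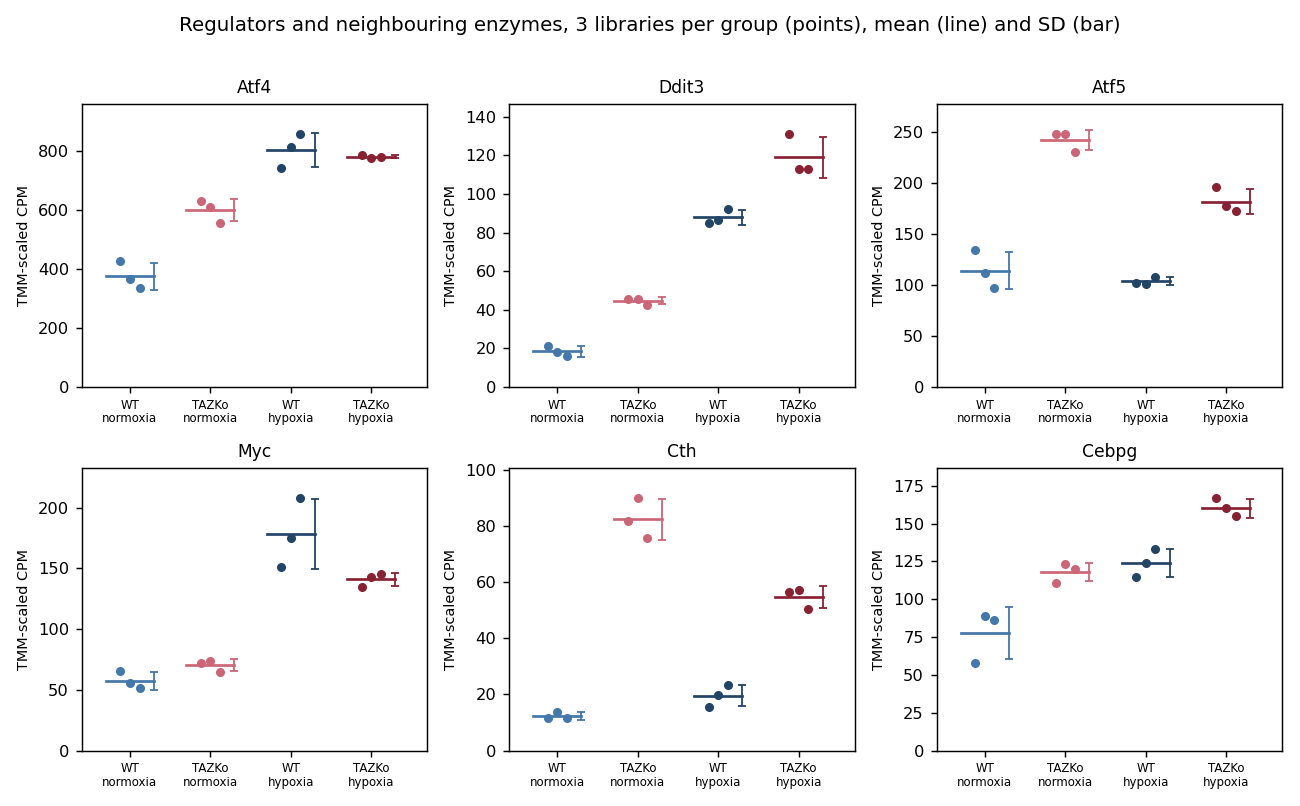
CPM, scaled by TMM (vertical axes, from 0), of Atf4, Ddit3, Atf5, Myc, Cth and Cebpg in the 4 groups (horizontal axes), with 1 point per library, a line for the mean and a bar for the SD of 3. Atf4 is apart between the genotypes in normoxia and overlaps in hypoxia, whereas Cth is higher in TAZKo in both conditions and moves in opposite directions in hypoxia.

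The neighbouring pathways are given by counts, to be read beside all genes tested: 15.8% were called higher and 16.9% lower in TAZKo in hypoxia, 26% rose and 25% fell in WT hypoxia, and 22.2% rose and 21.6% fell in TAZKo hypoxia. Of 19 genes of the folate cycle and folate transport, 15 were tested; in hypoxia 2 were higher and 3 lower in TAZKo (median -0.00). In hypoxia against normoxia 2 rose and 6 fell in WT, and 1 rose and 5 fell in TAZKo (medians -0.25 and -0.19). Folr1, a folate receptor, was lower in TAZKo in hypoxia (log2 difference -2.76, SE 0.241, edgeR adjusted p = 1.79e-06), at 1.51, 1.62 and 1.15 CPM against 13, 7.8 and 8.44 CPM. Slc19a1, the reduced folate carrier, was higher in TAZKo in hypoxia (0.69, SE 0.101, edgeR adjusted p = 0.000154) and lies on chromosome 10. Mthfd2l, the paralogue of Mthfd2, differed by -0.00 between the genotypes in hypoxia (95% interval -0.46 to 0.45, edgeR adjusted p = 0.994).

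Of 14 genes of glycine cleavage and serine use, 13 were tested: 2 were higher and 3 lower in TAZKo in hypoxia (median -0.06), and 2 rose and 5 fell in hypoxia in each genotype. Sdsl, a serine dehydratase-like enzyme, was lower in TAZKo (-1.33, SE 0.162, edgeR adjusted p = 3.33e-05), and Sfxn2, a relative of the mitochondrial serine carrier, fell in WT hypoxia (-0.70, edgeR adjusted p = 9.47e-07). Sfxn2 fell in TAZKo hypoxia as well (-0.68, edgeR adjusted p = 1.98e-06). Gldc, the glycine decarboxylase, rose in WT hypoxia (2.60, edgeR adjusted p = 0.000245) but stood at 0.75 to 1.02 CPM there and at 0.0877 to 0.177 CPM in WT normoxia, near the 0.0961 to 0.143 CPM that 3 counts are worth. It also rose in TAZKo hypoxia (2.44, edgeR adjusted p = 0.00271), to 0.418 to 0.449 CPM. Of 10 genes of the methionine cycle and transsulfuration, 9 were tested: 3 were higher and 2 lower in TAZKo in hypoxia (median 0.10), 3 rose and 3 fell in WT hypoxia, and 1 rose and 4 fell in TAZKo hypoxia. Cth, which makes cysteine from cystathionine, was at 11.5, 13.9 and 11.6 CPM in WT normoxia and at 81.6, 90 and 75.6 CPM in TAZKo normoxia. In hypoxia Cth was at 15.6, 19.9 and 23.2 CPM in WT and at 56.5, 57.2 and 50.3 CPM in TAZKo (genotype difference 1.47, SE 0.123, edgeR adjusted p = 1.16e-06). It rose in WT (0.68, edgeR adjusted p = 0.000712) and fell in TAZKo (-0.59, edgeR adjusted p = 0.000992). Cbs, the enzyme before it, fell in WT hypoxia (-1.08, edgeR adjusted p = 0.000223), as did Ahcy of the methionine cycle (-0.61, edgeR adjusted p = 8.71e-05). In TAZKo mean Cbs was 3.59 CPM in normoxia and 1.88 CPM in hypoxia, and Ahcy fell by 0.37 (edgeR adjusted p = 0.00553).

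All 12 genes of asparagine, aspartate, glutamine and proline metabolism were tested: 4 were higher and 5 lower in TAZKo in hypoxia (median -0.01). In hypoxia 3 rose and 6 fell in WT, and 2 rose and 6 fell in TAZKo. Aspg, an asparaginase, was higher in TAZKo in hypoxia (1.96, SE 0.181, edgeR adjusted p = 2.91e-06), at 8.35, 8.16 and 9.37 CPM against 3.05, 1.48 and 2.18 CPM. Asrgl1, another asparaginase, fell in TAZKo hypoxia (-1.37, SE 0.138, edgeR adjusted p = 3.78e-06), and Glul, which makes the glutamine that Asns uses, fell in WT hypoxia (-1.39, edgeR adjusted p = 7.4e-08). Both stood lower in hypoxia in the other genotype too. Mean Asrgl1 was 8.72 CPM in WT normoxia and 5.21 CPM in WT hypoxia. Mean Glul was 84.9 CPM in TAZKo normoxia and 41.5 CPM in TAZKo hypoxia. Of 16 genes of S phase and mitosis, which mark dividing cells, 1 was higher and 6 were lower in TAZKo in hypoxia (median -0.20), with Mcm6 at -0.85 (edgeR adjusted p = 2.81e-07) and Rrm2 at -0.58 (edgeR adjusted p = 6.78e-06). Their summed level was 5272 to 5425 CPM in TAZKo hypoxia and 6023 to 6074 CPM in WT hypoxia, and its part in the differences of the folate genes was not tested. In hypoxia 5 of the 16 rose and 5 fell in WT, and 4 rose and 6 fell in TAZKo. Ccne2 rose in WT hypoxia (1.0, edgeR adjusted p = 0.00376), with library values of 26.3, 51.3 and 50.1 CPM in normoxia and 59.6, 93.4 and 102 CPM in hypoxia. Its TAZKo mean was 46.6 CPM in normoxia and 72.8 CPM in hypoxia.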

How the data were processed

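RNA was measured in 12 libraries of mouse embryonic fibroblasts, made with the Illumina TruSeq RNA v2 kit per the labels' protocols. The deposited tables hold 1 whole-number read count per Ensembl gene and library, with no normalization recorded. The submitters' processing notes name mm10; the aligner, the counting program, its use of strand and the annotation are not given in the sources used here. Symbols and coordinates came from GENCODE M21 on GRCm38 by identifier (48349 of 48709 matched), and promoter windows from RefSeq.

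After filterByExpr and TMM scaling, a quasi-likelihood model with 1 coefficient per group was run on the 12 libraries together in edgeR 4.0.16 (R 4.3.3, with limma 3.58.1). P-values were adjusted by Benjamini-Hochberg over the 14408 genes tested in a contrast, at a threshold of 0.05, and every adjusted p is from this test unless another tool is named. A range of adjusted p over alternatives covers the edgeR fits and the DESeq2 test together. The SE is the log2 difference divided by the square root of F. CPM values are TMM-scaled; 3 counts, taken as the floor, equal 0.0961 to 0.143 CPM depending on the library, which covers counting error only. The model was tested on simulated counts.

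The members, the pathway lists and the motifs were chosen with earlier results of these data known. All 10 members are named, with all 10 regulators and the fibroblast markers. From each other list the 3 genes with the largest change among those past the threshold without overlap in a contrast other than normoxia genotype are named, as are the 3 genes nearest in profile to 5 members; 1 gene that the rule names is not reported here. Mthfd2l, Aldh1l1, the genes that overlap a member, and the markers of other cell types that were above 0 were named after their values were seen.

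The titles number the libraries 1 to 3 in each group, but their meaning is not in the labels. Same-numbered libraries deviated together in normoxia (correlations 0.35, 0.15 and 0.23 between genotypes) and in WT across oxygen (0.37, 0.2 and 0.15), but not in hypoxia (0.06, -0.02 and 0.12) or in TAZKo (0.03, -0.02 and 0.09). The pairing rests on the titles' numbers and enters as a block in an alternative fit. Lane was read from the names of the deposited tables: number 1 is lane 4, number 3 is lane 5, and number 2 is lane 4 in normoxia and lane 5 in hypoxia. Alternatives were other scalings, DESeq2 1.42.0, other filters, the block, lane, only the samples of a comparison, a 2-fold minimum and each library left out. Adding the counts of genes that share sequence with Phgdh was chosen after seeing the data.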

Additional observations from a re-analysis of the deposited data

Results flagged for a closer look

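A direct test of the TAZKo response to hypoxia against the WT response passed the threshold of the edgeR quasi-likelihood test for 2 members and 3 other genes named in the text. Over all genes tested, 1.71% were called lower in this test and 0.722% higher. Aldh1l2 rose without overlap in both genotypes, with a TAZKo response minus WT response of -0.65 (adjusted p = 0.0019). Mthfd1l had -0.58 (adjusted p = 0.0297), a call lost in 9 of the 12 fits with 1 library left out. Among the regulators, Ddit3 had -0.85 (adjusted p = 0.00446) and Atf4 -0.72 (adjusted p = 0.00554). Cth had -1.27 (adjusted p = 0.00207): it rose in WT and fell in TAZKo, with no overlap between normoxia and hypoxia libraries in either genotype. All 5 differences use the normoxia libraries in which these genes were higher in TAZKo. For the 2 members that normoxia difference was known when they were listed, which favours a negative value. The lists that hold Ddit3, Atf4 and Cth were also chosen with earlier results of these data known. The p-values of all 5 differences are therefore a description.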

How the results depend on the processing

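Most values kept their direction and their side of the threshold: 197 of 211 for the normoxia genotype difference, 196 of 211 in hypoxia, 193 of 211 for the WT response, 190 of 211 for the TAZKo response and 174 of 201 for the difference of responses. A 2-fold minimum left 3, 1, 1, 1 and 0 members called higher in normoxia, higher in hypoxia, higher in the WT response, higher in the TAZKo response and lower in the difference of responses, and 0 called lower in either response. Shmt1 made 1 member called lower in normoxia under upper quartile scaling, DESeq2, a mean of at least 5 CPM and the replicate block. Mthfd2 made 2 members called lower in the TAZKo response under library size alone, no filter and only the samples of the comparison. The members called lower in the difference of responses were 5 under DESeq2, no filter and the replicate block, which added Psph, Asns and Mthfd2; over all genes 104 were called higher and 246 lower there, against 272 and 367 with the block, 240 and 334 with DESeq2, and 400 and 327 with no filter. The block changed no other call of a member than these, that of Mthfd1l in hypoxia and that of Shmt2 in the WT response (0.20, edgeR adjusted p = 0.0469). With 1 library left out, members called lower ran from 0 to 2 in normoxia, 0 to 1 in hypoxia, 1 to 2 in the TAZKo response and 1 to 5 in the difference of responses, and the gap between compartments in normoxia from 0.16 to 0.27. With 1 library left out, the difference of responses ran from -0.05 to 0.14 for Phgdh and from -0.03 to 0.08 for Shmt1 (0.05 and 0.02 with all), and both were negative without WT normoxia sample 1. The TAZKo response of Asns was 0.01 at a mean of at least 5 CPM and that of Shmt2 0.00 with lane as a covariate. Scaling by library size put the all-gene median at -0.10 for either hypoxia response, and the genes called higher and lower to 2966 and 4817 in WT (3750 and 3605 with TMM) and to 2470 and 4393 in TAZKo (3198 and 3111). Less that median, the TAZKo response of Phgdh was 0.22 and the WT response of Mthfd2 0.25, which as measured (0.12 and 0.16) had no call. With only the 6 WT libraries 2701 were called higher and 3356 lower. The cause of these changes was not tested. The fit to only the samples of a comparison was not rerun for the difference of responses, which uses all 12. The mean transcript length moved the ratio of Mthfd1l to Mthfd1 to 0.168, 0.321, 1.18 and 1.33.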

Other observations

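Genes of proline synthesis, which shares its ATF4 control with serine synthesis in many cells, were looked at after their values had been seen. Pycr1, which makes proline in mitochondria, was at 39.7, 34.7 and 36.2 CPM in WT normoxia and at 90.9, 85.3 and 81.5 CPM in TAZKo normoxia. Under hypoxia it read 24.9, 27.6 and 27.1 CPM in WT and at 55.3, 53.2 and 55.6 CPM in TAZKo, so that it was higher in TAZKo (log2 difference 1.04, edgeR adjusted p = 1.61e-07) and fell in hypoxia in both genotypes (-0.47 and -0.65, edgeR adjusted p = 8.5e-05 and 4.56e-06). Aldh18a1, which acts before it, moved the other way in hypoxia and rose by 0.62 in WT and 0.48 in TAZKo (edgeR adjusted p = 1.95e-06 and 3.36e-05). Sfxn1, the mitochondrial serine carrier, was higher in TAZKo in hypoxia (0.33, edgeR adjusted p = 0.000609) and fell in hypoxia in both genotypes (-0.29 and -0.16, edgeR adjusted p = 0.00077 and 0.0347).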
